A study of Mus musculus with 6 samples.

Results

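Serpina1a, Serpina1b, Serpina1c, Serpina1d and Serpina1e are the 5 mouse paralogs of the gene for α1-antitrypsin, and they were followed in the RNA-seq of MIN6 cells, an insulin-secreting line derived from a mouse insulinoma. The members were found by their gene symbol and make up 5 of the 22298 genes in the deposited table. The family was chosen by its lower counts after chronic epinephrine in these same libraries, so its differences between the groups are given as a description, with no p-value. The series held 3 control and 3 chronic epinephrine libraries. Chronic epinephrine stands for MIN6 cells kept in complete medium with 100 nM epinephrine for 3 days and then for 2 days without it, and control cells were kept in complete medium throughout. The scheme of the study draws RNA extraction at the end of this course, and its text does not name the day. MIN6 is a single tumour-derived line, so it stands for beta cells only as far as that line does.

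α1-antitrypsin is a secreted serine protease inhibitor (serpin) that is made in large amounts by hepatocytes and that inactivates neutrophil elastase. A serpin presents an exposed reactive centre loop as bait, and the protease that cuts it after the residue named P1 is trapped. Mice carry several copies of the gene, and the copies differ most in this loop and hence in the proteases that they can trap. In hepatocytes the gene is known to be driven by liver-enriched factors and to rise with inflammatory cytokines of the interleukin 6 type, and the protein is folded in the endoplasmic reticulum and exported with the help of the cargo receptor LMAN1.

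The 5 genes lie side by side on the minus strand of chromosome 12 of GRCm38, within 230.8 kb from 103728156 to 103958975, in a serpin cluster that also holds 6 pseudogenes between them. Serpina1b (ENSMUSG00000071178) spans 103728156 to 103830373, Serpina1d (ENSMUSG00000071177) spans 103763594 to 103773592, and Serpina1a (ENSMUSG00000066366) spans 103853589 to 103863562. Serpina1c (ENSMUSG00000079015) spans 103894926 to 103904887 and Serpina1e (ENSMUSG00000072849) spans 103946931 to 103958975. The long span of Serpina1b overlaps that of Serpina1d. In the GENCODE M21 transcripts each gene has a coding sequence of 1239 bases, and any pair of them is identical at 96.29% to 98.47% of the coding bases. The 81 coding bases shown here begin 12 codons before the P1 codon. They lie within a single exon of each gene and are printed because the loop sets which protease each inhibitor can trap. Capitals mark the 19 bases (23.5%) that are not the same in all 5.
Serpina1a: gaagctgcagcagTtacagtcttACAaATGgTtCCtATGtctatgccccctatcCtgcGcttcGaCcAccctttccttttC
Serpina1b: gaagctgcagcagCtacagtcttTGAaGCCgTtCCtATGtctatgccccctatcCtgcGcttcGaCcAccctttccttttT
Serpina1c: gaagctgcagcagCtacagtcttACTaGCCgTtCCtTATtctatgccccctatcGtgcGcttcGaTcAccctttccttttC
Serpina1d: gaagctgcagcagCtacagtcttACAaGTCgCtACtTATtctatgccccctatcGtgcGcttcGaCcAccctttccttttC
Serpina1e: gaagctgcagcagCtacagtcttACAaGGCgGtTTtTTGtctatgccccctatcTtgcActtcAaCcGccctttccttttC

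On GRCm38 these stretches are chr12:103853744-103853824 for Serpina1a, chr12:103728311-103728391 for Serpina1b, chr12:103895081-103895161 for Serpina1c, chr12:103763749-103763829 for Serpina1d and chr12:103947087-103947167 for Serpina1e, all on the minus strand. The P1 codon, number 377 of the coding sequence, is atg (methionine) in Serpina1a and Serpina1b, tat (tyrosine) in Serpina1c and Serpina1d, and ttg (leucine) in Serpina1e. The loops of Serpina1c and Serpina1d were the closest pair, with 5 differing bases, and Serpina1e differed from the other 4 genes at 10 to 12 bases.

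Depth was similar in all libraries, from 15017065 to 18127171 expected counts. Each library held 370 to 1208 expected counts over the 5 paralogs together. An expected count is an estimate that splits reads with several possible origins, and all 30 values of the members (5 genes in 6 libraries) were fractional, against 8.34% of the values of the whole table. Their sum was whole to within 0.01 in all 6 libraries. Of all 50-base windows in the annotated transcripts, 29.5% to 74.2% of those of a member also occurred in a transcript of another gene, fewest for Serpina1b and most for Serpina1c, and these genes were the other members or the pseudogene Gm8893. With 150-base windows the shared part was 7.36%, for Serpina1e, to 50.5%, for Serpina1c. The sum of the 5 is therefore given beside each paralog, because it does not depend on how reads were divided between them.

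Control 1 stood apart from the other libraries over all tested genes, and controls 2 and 3 stood apart in a set of liver transcripts. The log2 CPM of control 1 correlated at 0.976 to 0.981 with the other libraries, which among themselves correlated at 0.988 to 0.995. Alb, the gene of serum albumin, had 3, 593 and 1315 counts in the control libraries in order, and 5, 8 and 5 counts in the 3 epinephrine libraries. Of 60 hepatocyte genes, 20 had no count in control 1 or in any epinephrine library and were present in both control 2 and control 3. Other genes of the list were present in all 6 libraries, Adh1 (an alcohol dehydrogenase) at the highest level with 161 to 202 CPM. The summed level of the whole list was 274, 407 and 626 CPM in controls 1, 2 and 3 and 253 to 259 CPM after epinephrine. CPM are counts scaled to a common library size by TMM, as a rate per 1e6 counts. All 18 genes of a beta-cell list, Ins1 and Ins2 among them, were detected in all 6 libraries. Results for the Serpina1 genes are therefore given with and without control 1, and with and without controls 2 and 3.

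Summed over the paralogs, Serpina1 RNA was 36.9, 51.2 and 75.6 CPM in controls 1, 2 and 3, and 22.1, 26.7 and 24.5 CPM in chronic epinephrine 1, 2 and 3. Every epinephrine library lay below every control library, and the controls spread over a wider range than the epinephrine libraries. The means were 54.6 ± 19.6 CPM in the control group and 24.4 ± 2.30 CPM after epinephrine (SD, n = 3), and the fitted log2 fold change was -1.16 (SE 0.23). All 5 paralogs passed the filter on low counts, all 5 had a fold change below 0, and for all 5 no epinephrine library reached the lowest control. Over all 12747 tested genes, 13.0% had every epinephrine library below every control library. In edgeR's quasi-likelihood test, 2 of the 5 members passed an adjusted p (FDR) of 0.05 as lower, where 0.612% of all tested genes did. Since the family was picked on this contrast, nothing is read from these counts. In bulk RNA, fewer cells that express a gene and less RNA per cell cannot be told apart.

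**Figure D1:**
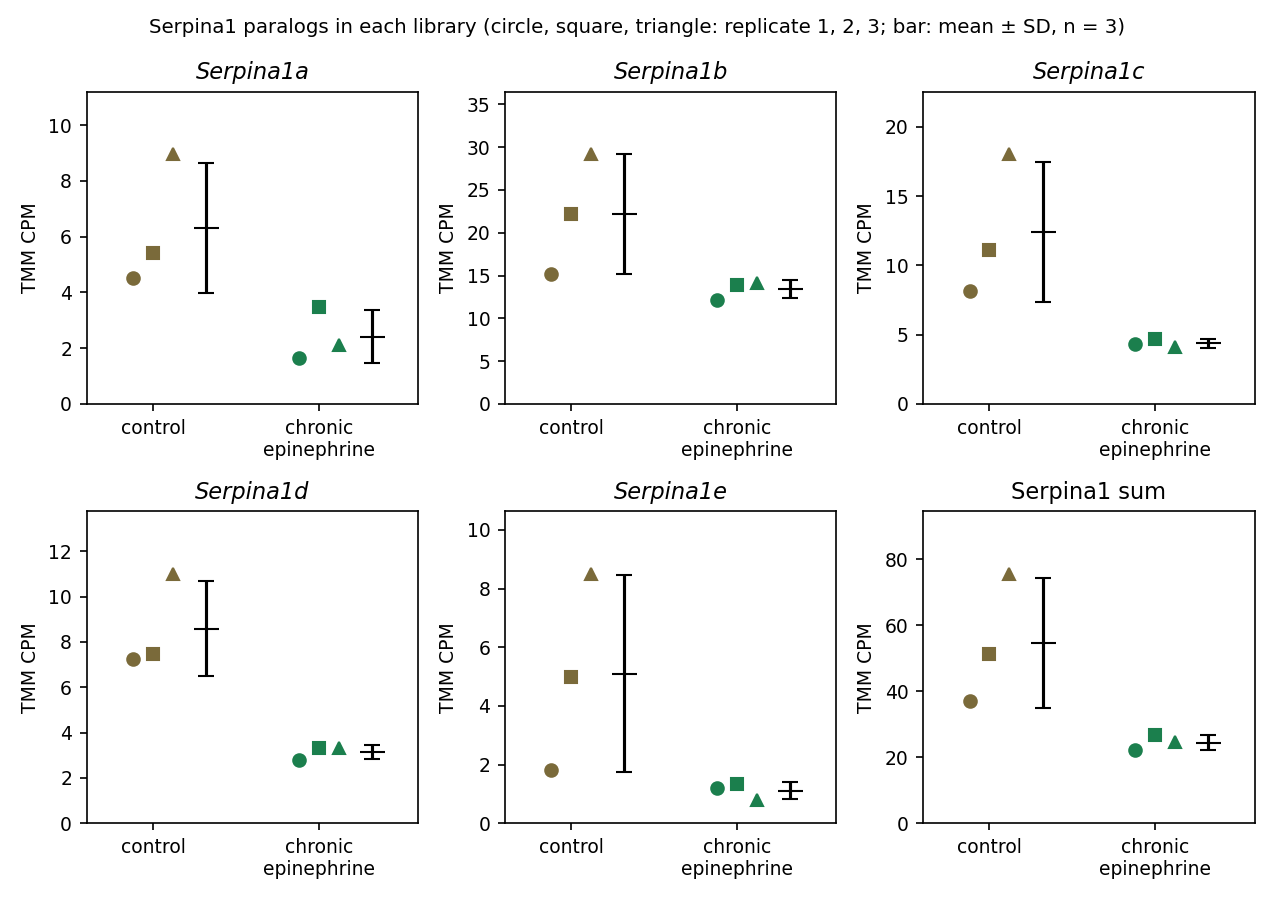
TMM-scaled CPM (linear axis from 0) of each Serpina1 paralog and of their sum in the 3 control and 3 chronic epinephrine libraries, with the mean ± SD beside the points. The epinephrine libraries of the sum lie between 22.1 and 26.7 CPM and the controls between 36.9 and 75.6 CPM, and control 3 is the highest library in every panel.

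Serpina1b, whose P1 residue is methionine as in human α1-antitrypsin, was the most abundant paralog in all 6 libraries. It had 15.2, 22.2 and 29.2 CPM in controls 1, 2 and 3, and 12.2, 14.0 and 14.1 CPM in chronic epinephrine 1, 2 and 3. Control 1 was only just above the epinephrine libraries, and controls 2 and 3 were well above them. The group means were 22.2 ± 6.97 and 13.4 ± 1.10 CPM (SD, n = 3). On the log2 scale the fitted change was -0.73 (SE 0.21), the smallest of the 5.

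Serpina1a, the other paralog with a P1 methionine, had 4.53, 5.43 and 8.95 CPM in the controls and 1.66, 3.47 and 2.12 CPM after epinephrine. Chronic epinephrine 2 came closest to the controls. Group means of 6.30 ± 2.33 and 2.42 ± 0.943 CPM (SD, n = 3) went with a fitted log2 change of -1.37 (SE 0.33).

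The paralogs with a P1 tyrosine had fold changes of similar size. Serpina1c had 8.16, 11.1 and 18.0 CPM in controls 1, 2 and 3, and 4.33, 4.71 and 4.10 CPM in the epinephrine libraries. The epinephrine libraries lay close together, while the controls differed 2.21-fold between the lowest and the highest. Serpina1d had 7.25, 7.49 and 11.01 CPM in the controls and 2.79, 3.31 and 3.31 CPM after epinephrine. Here controls 1 and 2 were close together and both were more than 2-fold above the mean of the epinephrine libraries. The log2 fold changes were -1.50 (SE 0.28) for Serpina1c and -1.45 (SE 0.20) for Serpina1d.

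Serpina1e, with leucine at P1, had the lowest level and, on the log2 scale, the widest spread between replicates. It had 1.81, 4.97 and 8.51 CPM in controls 1, 2 and 3, and 1.19, 1.34 and 0.793 CPM after epinephrine, from as few as 12.27 expected counts in chronic epinephrine 3. Control 1 was near the epinephrine libraries, and control 3 was 4.70-fold above control 1. The log2 fold change of -2.18 (SE 0.53) was the largest of the 5 and had the largest error.

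Levels of different genes were compared on the authors' FPKM, which are scaled to transcript length. Mean FPKM in the control group were 16.0 ± 4.79 for Serpina1b, 9.17 ± 3.61 for Serpina1c, 6.19 ± 1.45 for Serpina1d, 4.66 ± 1.65 for Serpina1a and 3.82 ± 2.49 for Serpina1e (SD, n = 3). After epinephrine they were 9.53 ± 0.751, 3.18 ± 0.205, 2.21 ± 0.205, 1.75 ± 0.670 and 0.807 ± 0.206 in the same order. This order held within 5 of the 6 libraries, and in chronic epinephrine 2 Serpina1a (2.50 FPKM) was above Serpina1d (2.32 FPKM). Between libraries, the control values of each paralog overlapped with those of its neighbour in the order. After epinephrine only Serpina1d and Serpina1a overlapped.

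The make-up of the family also differed between the groups. Serpina1b made up 40.8%, 42.7% and 38.0% of the summed FPKM in controls 1, 2 and 3, and 54.4%, 51.8% and 57.6% in the epinephrine libraries. These ranges did not overlap, and control 1 lay between the other controls. The shares of Serpina1c (22.0% to 24.1% in controls, 17.0% to 19.96% after epinephrine) and of Serpina1d (14.4% to 19.4%, then 12.2% to 13.3%) were lower after epinephrine in every library. For Serpina1d control 1 alone was at 19.4%, and controls 2 and 3 were both at 14.4%. The shares of Serpina1e in the controls were 4.91%, 10.2% and 11.6% in order, against 3.26% to 5.65% after epinephrine. For this paralog control 1 resembled the epinephrine libraries rather than the other controls. Serpina1a overlapped between the groups, with 10.8% to 12.5% in controls and 7.60% to 13.2% after epinephrine. Shares rest on the division of reads between near-identical genes. They also add up to a whole in each library, so the higher share of Serpina1b and the lower shares of others are not separate observations. These differences restate the fold changes, which were smallest for Serpina1b, on the contrast that the family was picked on.

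**Figure D2:**
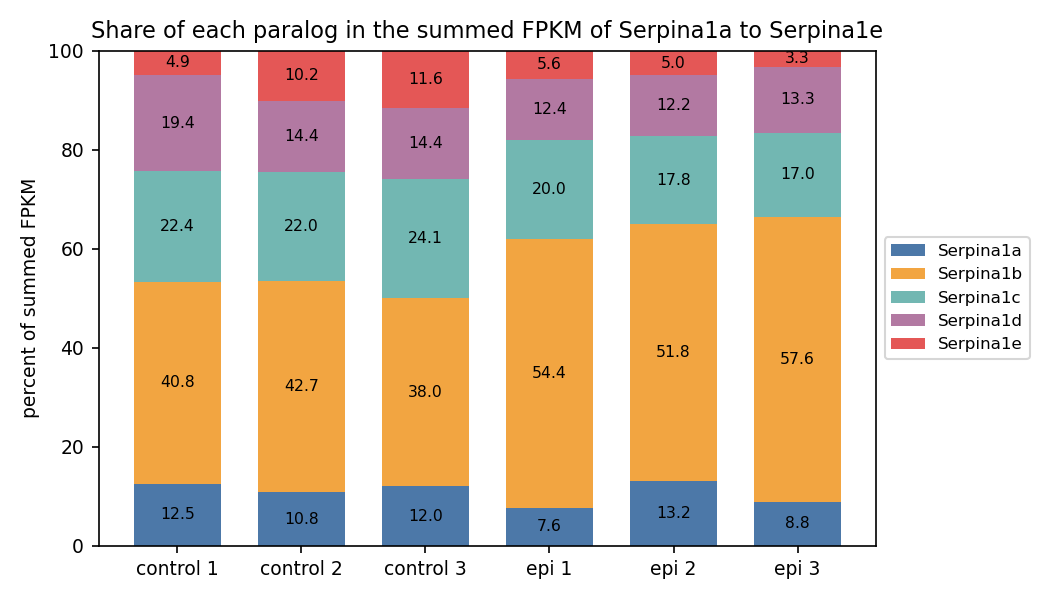
Share of each paralog in the summed FPKM of the 5 genes (percent, stacked to 100) for each library, with "epi" for chronic epinephrine. Serpina1b takes 38.0% to 42.7% in the controls and 51.8% to 57.6% after epinephrine, and Serpina1e is near 5% in control 1 and above 10% in controls 2 and 3.

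In controls 2 and 3 the excess of the family over control 1 was set beside that of Alb. Alb was at 0.194, 33.9 and 82.3 CPM in controls 1, 2 and 3. The Serpina1 sum exceeded control 1 by 14.3 CPM in control 2 and by 38.7 CPM in control 3, which is 0.425 and 0.471 CPM per CPM of Alb gained. The excess in control 3 was 2.70 times that in control 2 for the sum and 2.44 times for Alb. Among 14 hepatocyte genes with at least 20 counts in control 2 and a mean of at most 3 counts in control 1 and the epinephrine libraries, the level in control 3 was 1.09 to 3.46 times that in control 2, with a median of 2.73. For single paralogs the same ratio of excesses was 2.00 for Serpina1b, 2.12 for Serpina1e, 3.30 for Serpina1c and 4.92 for Serpina1a. For Serpina1d it was 15.9, since control 2 was only 0.236 CPM above control 1. How much of the Serpina1 RNA in controls 2 and 3 came with the liver transcripts was not tested.

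**Figure D3:**
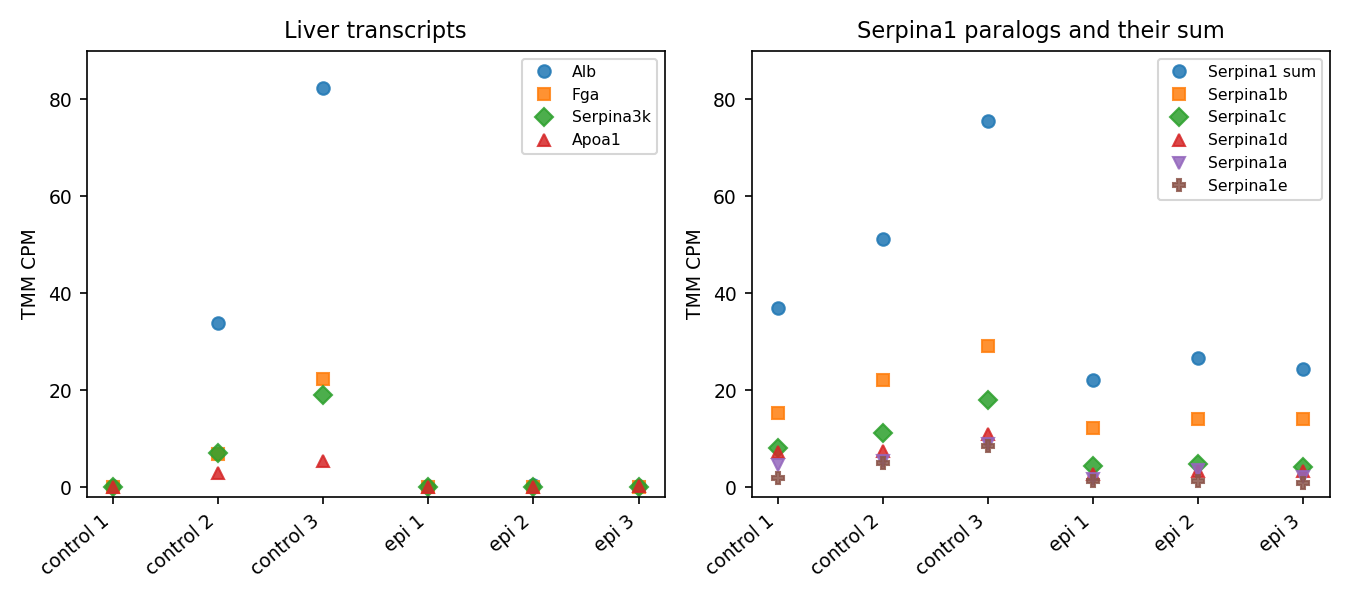
TMM-scaled CPM in each library of 4 liver transcripts (left) and of the Serpina1 paralogs with their sum (right), on the same linear axis, with "epi" for chronic epinephrine. The 4 liver transcripts plotted are near 0 in control 1 and after epinephrine, while the Serpina1 sum is 36.9 CPM in control 1 and 22.1 to 26.7 CPM after epinephrine.

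Control 1 is the control library in which Alb was as scarce as after epinephrine, and it was set against the 3 epinephrine libraries alone. It is also the library that stood apart over all tested genes. Whatever sets it apart cannot be told apart from the treatment in the ratios given here. With a single control there is no replicate check, and the intervals that follow are 95% Poisson intervals of the rounded expected counts. These intervals cover counting error only, not the spread between libraries. For single paralogs they also leave out the error of dividing reads between near-identical genes. They are a description and support no difference between the conditions. The Serpina1 sum in control 1 was 36.9 CPM (33.9 to 40.1), 1.51 times the epinephrine mean, and the highest epinephrine library was at 26.7 CPM (24.4 to 29.2). Serpina1d in control 1 was 2.31 times the epinephrine mean, at 7.25 CPM (5.97 to 8.72) against a highest epinephrine library of 3.31 CPM (2.52 to 4.26). Serpina1c was 1.86 times the epinephrine mean, at 8.16 CPM (6.79 to 9.71) against 4.71 CPM (3.75 to 5.83). These paralogs had their lowest control well above the epinephrine libraries. Serpina1a was 1.87 times the epinephrine mean, with an interval of 3.53 to 5.73 against 2.66 to 4.45 in chronic epinephrine 2. Serpina1e was 1.64 times the mean (1.20 to 2.62 against 0.862 to 2.00) and Serpina1b 1.13 times (13.3 to 17.3 against 12.3 to 16.2).

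The fitted fold changes moved accordingly with the controls used. Without controls 2 and 3 the log2 fold change of the sum was -0.61, and without control 1 it was -1.37. Without controls 2 and 3 it was -0.19 for Serpina1b and -0.71 for Serpina1e, against -0.93 and -2.58 without control 1. The fold change of Serpina1d varied least, with -1.22 and -1.56. Serpina1a had -0.91 and -1.55, and Serpina1c had -0.91 and -1.72. All these values were below 0, which the choice of a family with no overlap between the groups fixes in advance.

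**Figure D4:**
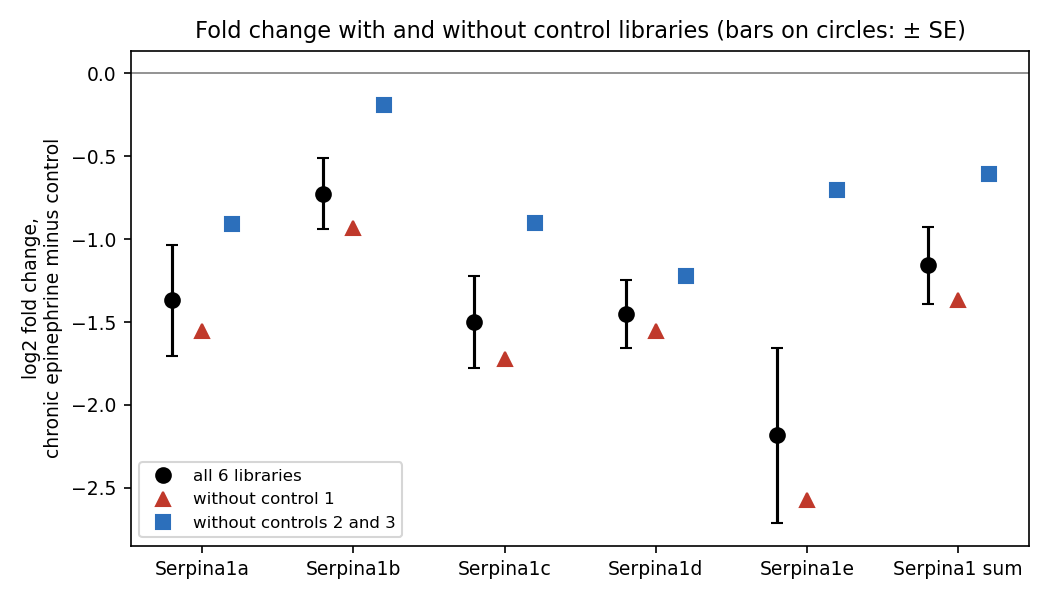
Log2 fold change (chronic epinephrine minus control) of each paralog and of the sum from edgeR with all 6 libraries (circles, with ± SE), without control 1 (triangles) and without controls 2 and 3 (squares). Without controls 2 and 3, Serpina1b is at -0.19 and Serpina1d at -1.22.

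Few of the other clade A serpins had enough counts for a test. Of 21 listed, 19 were in the table and 2 passed the filter on low counts, and neither passed an FDR of 0.05 or an unadjusted p under 0.05 in edgeR, where 2.63% of all tested genes passed that FDR. DESeq2, which tested 6 of them, and limma on FPKM, which tested 16, also called 0. An unadjusted p under 0.05 was found for 1 gene in DESeq2 and for 2 or 4 in limma. Serpina3n, an acute-phase inhibitor, had 6.34, 5.49 and 10.8 CPM in the controls and 8.84, 8.01 and 9.52 CPM after epinephrine, and its groups overlapped (log2 fold change 0.22, SE 0.24, edgeR FDR 0.692). Serpina10, an inhibitor of clotting factor X, went from 2.12 ± 0.264 to 2.50 ± 0.695 CPM (SD, n = 3; log2 fold change 0.23, edgeR FDR 0.692). Serpina3k and Serpina3m, named after their values were seen, were listed at 0 in control 1 and in all 3 epinephrine libraries. Serpina3k had 123 and 302.89 expected counts in controls 2 and 3, and Serpina3m had 14 and 30.11. Both were called lower without control 1, where they passed the filter only through controls 2 and 3, so this call restates their counts. Serpina1f, the next gene of the cluster, had 1 count in each of 2 libraries and 0 in the others. Of 34 serpins of other clades 9 were tested, 2 of them with an unadjusted p under 0.05, among them Serpinb1a (log2 fold change 1.15, edgeR FDR 0.222), and edgeR, DESeq2 and limma called 0. Serpinc1, the gene of antithrombin, was called lower without control 1 and in no other fit that left out a single library. It too passed the filter there only through controls 2 and 3, where it was highest.

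Genes around antitrypsin were taken from 3 lists. Of 16 serine proteases that it can bind, 1 was tested, Plat (tissue plasminogen activator), which rose from 5.90 ± 0.670 to 9.30 ± 0.644 CPM (SD, n = 3; log2 fold change 0.66, SE 0.14, edgeR FDR 0.0446). This call was lost without each library other than control 1, with an FDR of 0.0672 to 0.259. Neutrophil proteases such as Elane were not above the filter. Of 22 genes for export and quality control of secreted glycoproteins, all were tested, and 6 rose and 0 fell, where 2.63% of all tested genes were called in either direction. An unadjusted p under 0.05 was found for 12 of them, and for 17.1% of all tested genes. Their median log2 fold change was 0.28, where the median of all tested genes was -0.0023. The cargo receptor pair Lman1 and Mcfd2 rose from 406 ± 6.58 to 531 ± 8.36 CPM and from 65.5 ± 4.87 to 96.0 ± 4.57 CPM (SD, n = 3), with edgeR FDR of 0.0359 and 0.0166. Hspa5 (the chaperone BiP) and Derl3 (of the degradation channel) had log2 fold changes of 0.62 and 1.22 (edgeR FDR 0.00740 and 0.0139). None of the 6 was called without any one of the epinephrine libraries. Hspa5 and Mcfd2 were called without control 2, Hspa5 alone without control 3, and 18 of the list without control 1. The fit without control 1 called 2798 genes of the whole table.

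Of 17 regulators of the antitrypsin gene in liver, 13 were tested, 10 of them with a fold change below 0. Their median log2 fold change was -0.11, where the median of all tested genes was -0.0023. Only Cebpb, a factor of the acute-phase response, passed, and it rose from 14.2 ± 0.952 to 24.3 ± 2.37 CPM (SD, n = 3; log2 fold change 0.77, SE 0.11, edgeR FDR 0.0108). Without control 2 or any one epinephrine library its FDR was 0.0507 to 0.0830. Hnf4a, whose product acts on liver promoters and which was named after its values were seen, had a log2 fold change of -0.30 (edgeR FDR 0.277). Over the 5 lists together 8 of 47 tested genes (17.0%) were called, where 2.63% of all tested genes were. Of the 8 calls, 6 were in the list for export and quality control of secreted glycoproteins. The lists were chosen with earlier results of these data known, so nothing is read from the pooled share. None of the 8 calls stood without any one of the 3 epinephrine libraries. There were 2 calls left without control 2 (Hspa5 and Mcfd2) and 2 without control 3 (Hspa5 and Cebpb). Without control 1, 24 list genes were called, while the calls over all genes rose from 335 to 2798. The 24 include Serpina3k, Serpina3m and Serpinc1, which passed that filter only through controls 2 and 3.

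Other cell types were checked in the same libraries. Of the 18 beta-cell genes, all tested, 1 rose (Chgb) and 3 fell (Slc2a2, Ucn3 and Ins1), where 2.63% of all tested genes were called. Slc2a2 and Ucn3 alone were called without control 2 or control 3, 0 genes without any one epinephrine library (6 at an unadjusted p under 0.05 in edgeR each time), and 12 without control 1. The summed level of 23 acinar pancreas genes was 18.0 to 21.0 CPM in controls and 40.3 to 44.3 CPM after epinephrine. Both genes of the list that were tested rose, among them Bhlha15 (a transcription factor of secretory cells) by 0.77 on the log2 scale (edgeR FDR 0.0136). Bhlha15 was not called without any one library other than control 1, with an FDR of 0.0510 to 0.106. Of the list, 11 of the list genes, which include defining enzymes, had no count in any library. The summed level of 20 leukocyte genes was 50.8 to 74.2 CPM in controls and 83.1 to 87.0 CPM after epinephrine, most of it from C1qa, a complement gene, with 44.3 to 67.8 and 71.6 to 76.6 CPM (edgeR FDR 0.188). Of these 4 were tested and Cd68, of lysosomes in macrophages and other cells, was called, with a log2 fold change of 2.39 (edgeR FDR 0.00906). This call was lost without control 2, chronic epinephrine 1 or chronic epinephrine 3, with an FDR of 0.0523, 0.0778 and 0.0611. Among the 4 tested leukocyte genes, 3 had a fold change above 0, and Csf1r had a log2 fold change of -0.32 (edgeR FDR 0.786). Ptprc, also on the list, had at most 2 counts in any library. Of 10 genes of other islet cells, 5 were tested and Gcg (glucagon) rose by 1.02 (edgeR FDR 0.00199). Of the 60 hepatocyte genes, 17 were tested and 0 called by edgeR, with 6 at an unadjusted p under 0.05. DESeq2 tested 53 and called 12 lower, and limma on FPKM tested 60 and called 0. Most of the DESeq2 calls, Alb among them, were of genes that edgeR's filter left out. In edgeR the smallest p belonged to Rbp4 and Ambp, secreted carriers, with log2 fold changes of -0.75 and -0.76 (edgeR FDR 0.0749 and 0.0803). Without control 1, 38 hepatocyte genes were tested, and edgeR called 30 lower and 1 higher. The same fit called 2798 genes of the whole table, 1226 of them lower. Genes such as Alb passed its filter only through controls 2 and 3, where they are high. Their lower calls were thus fixed in advance, and nothing is read from them. The part of any of these cell types in the Serpina1 values was not tested.

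Within the family, Pearson's r of log2 CPM over the 6 libraries was 0.893 to 0.972 for the 10 pairs of paralogs, which share sequence and libraries. All members were chosen as lower in the same epinephrine libraries, which by itself makes these r values high, so nothing is read from them. With Alb the r was 0.956 for Serpina1b, 0.945 for Serpina1e, 0.875 for Serpina1c, 0.794 for Serpina1a and 0.765 for Serpina1d. These values rest on controls 2 and 3, since Alb had only 3 to 8 counts in the other libraries. Outside the family, among 11360 tested genes with a mean of at least 50 counts, the pattern most like the Serpina1 sum was that of Unc13c (r = 0.996 over the 6 libraries), which encodes a protein of vesicle priming. It was followed by Prodh (proline dehydrogenase, 0.990), Stk38 (a kinase, 0.989), Pink1 (a mitochondrial kinase, 0.984) and Skap2 (an adaptor protein, 0.983). Unc13c had 4.27, 4.97 and 5.69 CPM in controls 1, 2 and 3 and 3.56 to 3.87 CPM after epinephrine, so it kept the order of the Serpina1 sum among the controls over a much smaller range. The r values of Unc13c and the genes named after it describe 6 libraries and were the highest of many.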

How the data were processed

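RNA-seq of MIN6 cells gave 6 libraries, 3 per group. The authors deposited 1 table with expected counts (estimated counts per gene, not scaled between libraries) and FPKM for each library. The submitters' processing notes give GRCm38, and the aligner, the counting tool and their strand setting are not given in the sources used here. Expected counts were rounded, filtered with filterByExpr (edgeR 4.0.16, R 4.3.3), scaled by TMM and fitted by edgeR's quasi-likelihood test, control against chronic epinephrine, with Benjamini-Hochberg adjustment over 12747 genes. For the sum, the rows of the 5 paralogs were replaced by their total and the whole table was refitted. SE is the size of the log2 fold change divided by the square root of F. Replicates are separate samples in the labels, and p-values measure only the spread between them. DESeq2 1.42.0, limma 3.58.1 on log2(FPKM + 1) or log2(FPKM + 0.1), other scalings and filters, a replicate block and each library left out were alternatives, and leaving out controls 2 and 3 was chosen after seeing the data. A gene at 0 could hold up to 3 counts. Positions and coding sequences are from GENCODE M21. Named genes are the 5 members, up to 4 called genes per list with the smallest p (or 2 where none was called), the most abundant hepatocyte genes and the 5 genes most like the sum. The members and lists were chosen with earlier results of these data known. B430119L08Rik lies antisense to Serpina1c and was not analysed here. Some genes that this rule names are not reported here.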

Additional observations from a re-analysis of the deposited data

How the results depend on the processing

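The choice of a family with no overlap between the groups fixes a log2 fold change below 0 in advance, and over 75 alternative fits of a paralog it ran from -2.58 (Serpina1e without control 1) to -0.19 (Serpina1b without controls 2 and 3). The median over the 5 paralogs was -1.45 and the sum had -1.16. With limma on log2 FPKM with 1 added, Serpina1d moved from -1.45 to -1.15 and Serpina1e from -2.18 to -1.28. With each library left out in turn the sum lay between -1.37 (without control 1) and -0.85 (without control 3). Leaving out controls 2 and 3, an alternative chosen after seeing the data, moved the median to -0.91 and the sum to -0.61. It also raised the number of genes called by edgeR at an FDR of 0.05 from 335 to 6362 and of list genes from 8 to 31, with control 1 alone standing for its group and assumed to vary like the others. The number of genes called was 729 with DESeq2, 200 and 191 with limma on log2 FPKM with 1 and 0.1 added, and between 47 (without chronic epinephrine 1 or 2) and 2798 (without control 1) with a library left out. Leaving out control 2 gave 108, control 3 gave 192 and the third epinephrine library gave 77. The list genes called were 13 with DESeq2, 4 and 5 with limma, 5 with library size only, and between 0 and 24 with a library left out. The cause of these moves was not tested. With the replicate number as a block edgeR called 178 genes and 3 list genes, and the sum had a log2 fold change of -1.10. Deviations of libraries with the same number correlated at 0.03, 0.11 and -0.06. With 3 libraries per group these values cannot settle whether libraries with the same number were handled together, and the labels do not say. Depth limits Serpina1e most, with 12.27 expected counts in its lowest library.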
